A study of Mus musculus with 20 samples.

Results

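Iron handling was followed through 8 genes in mouse heart and tibialis anterior muscle: Hamp, Hfe2, Hfe, Tfrc, Trf, Slc40a1, Fth1 and Ftl1. They were picked by name from the 22564 genes of the deposited expression table, because Hamp is listed at 0 in all 6 hearts of mice that carry the mdx mutation. That choice used the heart values of Hamp, so its difference between mdx-carrying and non-carrying hearts is described here and not tested. RNA-seq was done on 20 libraries, from the heart and the muscle of 2 mice in each of 5 groups. Trans/mdx mice, from a cross of transgenic and mdx mice (strain label C57BL/6N), either received 50 mg of the unnatural amino acid (UAA) NAEK every few days for 4 weeks or were kept without UAA. Mdx mice (strain label C57BL/10) carry a nonsense mutation in Dmd, the dystrophin gene. Transgenic mice (C57BL/6N) carry an injected UAA incorporation system, with its promoters and founder lines not given in the sources used here. Wild-type mice (C57BL/6N) carry neither. The 3 groups with the mutation are called mdx-carrying, and the other groups non-carrying. Strain and mdx genotype cannot be told apart in mdx mice against wild-type mice. The muscle libraries titled as the cross carry a transgenic genotype label and were placed with trans/mdx mice without UAA by title. Ages are not given in the labels.

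Hepcidin, the product of Hamp, is a small peptide hormone made mainly by the liver, and in mice also by heart muscle cells. It binds ferroportin, the iron exporter encoded by Slc40a1, and causes its degradation, so that cells keep their iron. Hamp transcription is driven by bone morphogenetic protein (BMP) signalling, for which hemojuvelin (Hfe2) is a co-receptor, and by interleukin 6 through STAT3. Hfe takes part in sensing iron-loaded transferrin (Trf), which cells take up through the transferrin receptor (Tfrc), and ferritin heavy and light chains (Fth1, Ftl1) store iron inside the cell. Iron regulatory proteins bind a hairpin called the iron-responsive element (IRE). In a 5′ UTR they block translation and in a 3′ UTR they protect the transcript when iron is low.

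IREs are printed for the 4 members whose transcripts hold the pattern, because they set apart the members open to this control after transcription. They were read from GENCODE transcripts of mm10 as the loop CAGTGN between a pair of 5-base arms that pair with each other (G with U allowed), with a C just ahead of the first arm, on the transcript strand only. Capitals mark the bulged C and the loop, and the sequences run 5′ to 3′ in the transcript.
Tfrc 3′ UTR, loop at base 3327 of 4890: tatCggaagCAGTGCcttccata
Tfrc 3′ UTR, loop at base 3706: tatCgggagCAGTGTcttccata
Tfrc 3′ UTR, loop at base 3771: tatCggagaCAGTGAtctccata
Tfrc 3′ UTR, loop at base 3818: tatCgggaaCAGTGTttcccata
Fth1 5′ UTR, loop at base 670 of 1494: ctgCttcaaCAGTGCttgaacgg
Ftl1 5′ UTR, loop at base 90 of 968: ttgCttcaaCAGTGTttgaacgg
Slc40a1 5′ UTR, loop at base 102 of 3370: cttCagctaCAGTGTtagctaag
The same pattern occurs in the 5′ UTR of 19 of 19728 genes (0.0963%) and in the 3′ UTR of 102 of 20002 genes (0.51%). A match is a sequence pattern and was not measured as a binding site.

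Hamp (chr7:30942368-30944032, minus strand, mm10) has a near copy, Hamp2 (chr7:30922372-30924681, minus strand), whose coding sequence is identical at 236 of 252 bases (93.65%), with a longest identical run of 80 bases. The last 25 codons, where the copies differ at 14 bases (capitals), are shown because they hold most of the 16 coding bases at which the copies differ.
Hamp: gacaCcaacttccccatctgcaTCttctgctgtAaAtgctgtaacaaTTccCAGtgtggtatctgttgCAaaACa
Hamp2: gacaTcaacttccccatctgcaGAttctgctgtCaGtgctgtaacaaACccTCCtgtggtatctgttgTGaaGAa
Hamp2 is listed at 0 in all 20 libraries, while fragments from the shared run cannot be told apart between the copies.

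Levels are given as FPKM, the fragments of a gene divided by its transcript length in kilobases and by library depth. The low values fit a length shortened by an estimated 172 to 202 bases in heart and 164 to 180 bases in muscle. Most low values are whole multiples of a step, from which each heart library held an estimated 3149610 to 4301080 fragments and each muscle library 2042900 to 2638520, so levels near 1 FPKM rest on few fragments. Zeros need care: mt-Nd1, a respiratory chain gene of the mitochondrial genome, is listed at 0 in 9 of 10 hearts and at 17220.4 FPKM in the other. Each heart library also lists at 0 between 2 and 28 genes whose median in the other hearts is 2 FPKM or more, and each muscle library between 4 and 37. The tissue labels fit their markers: all 7 ventricular cardiomyocyte markers were called higher in heart and all 10 skeletal fibre markers lower.

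The table lists Hamp at 0 FPKM in every heart of trans/mdx mice with UAA, trans/mdx mice without UAA and mdx mice. Transgenic hearts had 1.15 and 1.32 FPKM of Hamp, and wild-type hearts 4.79 and 1.32 FPKM. The mdx-carrying and non-carrying hearts therefore do not overlap, which is the pattern the gene was chosen for. In muscle Hamp was listed at 0 in all 10 libraries, so the comparison of genotypes is possible in heart alone.

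The heart values of Hamp rest on very few fragments. The Hamp transcript is 410 bases long, from which an estimated 172 to 202 bases are deducted in the heart libraries. A single fragment of it is then worth 1.02 to 1.33 FPKM in the mdx-carrying hearts. The deduction was fitted on longer transcripts and carried over to Hamp, so the fragment numbers and limits below depend on it. Divided by the worth of a fragment in each library, the levels correspond to 1.05 and 1.04 fragments in transgenic hearts and 4.12 and 1.11 fragments in wild-type hearts, or 7 fragments over all hearts. A count of 0 allows up to 3 fragments, which is 3.05 to 4.00 FPKM in the mdx-carrying hearts. The 3 non-carrying hearts other than wild-type replicate 1 lie under this limit, so no single mdx-carrying heart can be told from them at this depth. Taken as 1 common level over the 6 mdx-carrying hearts together, the same 3 fragments allow up to 0.574 FPKM. The lowest non-carrying heart, at 1.15 FPKM, rests on 1.05 fragments and has a counting error of its own. As these zeros also chose the gene, setting the values side by side is no test of a difference. Both limits cover counting error only and take a listed 0 as a count of 0. In muscle, 3 fragments are worth 4.94 to 6.22 FPKM, above every heart, so no single muscle can be told from the hearts at this depth.

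**Figure D1:**
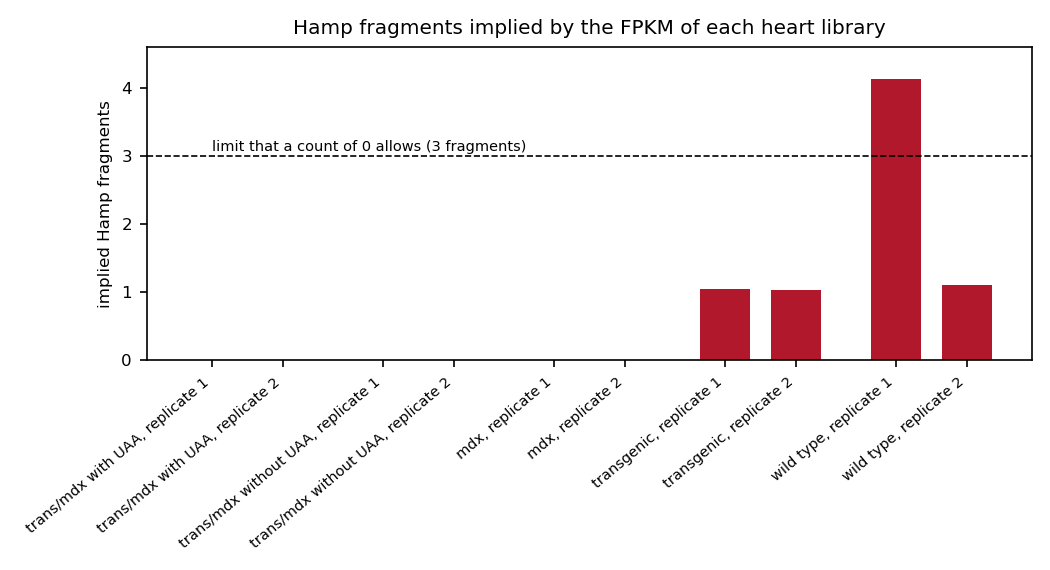
Hamp fragments implied by the FPKM of each heart library (vertical axis), by group and replicate, each bar 1 library and the dashed line the 3 fragments that a count of 0 allows. The 6 mdx-carrying hearts have no bar, 3 non-carrying hearts lie near 1 fragment and wild-type replicate 1 reaches 4.12.

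Among the 8269 genes tested in heart, Hamp was the only gene listed at 0 in all 6 mdx-carrying and above 0 in all 4 non-carrying libraries, which is 0.0121% of them. Among all 14288 genes above 0 in any heart, 5 (0.035%) had this pattern. No overlap between the groups with lower values in mdx-carrying hearts occurred in 0.254% of tested genes, and with higher values in 0.193%.

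The genes whose heart levels were most like Hamp over the 10 libraries were Gigyf1 (Pearson r = 0.919), Sf3b5 (0.915), Cdk9 (0.875), Orai1 (0.858) and Dennd5b (0.844). Sf3b5, a subunit of the splicing factor SF3b, lay at 0 to 0.438 FPKM in mdx-carrying hearts and at 0.511 to 2.75 in non-carrying hearts. Cdk9, the kinase of the elongation factor P-TEFb, lay at 0 to 1.14 FPKM in mdx-carrying hearts and 1.27 to 4.82 FPKM in non-carrying hearts. Gigyf1 lay at 0.478 to 0.754 FPKM in mdx-carrying hearts and 0.910 to 1.75 FPKM in non-carrying hearts, so these 3 genes do not overlap between the groups. Orai1, a calcium channel subunit, lay at 0.364 to 1.14 FPKM in mdx-carrying and 0.952 to 4.22 FPKM in non-carrying hearts, and Dennd5b at 0.486 to 1.35 FPKM in mdx-carrying and 1.17 to 2.71 FPKM in non-carrying hearts, and both overlap. All 5 were picked for following values of Hamp that differ by genotype, so their separation is part of the choice. The likeness rests on the library that is high for Hamp, since without wild-type replicate 1, 0 of the 5 genes were still among the top 5. Usf2, named for its place beside Hamp on the chromosome and after its values were seen, was at 5.96 to 15.04 FPKM in mdx-carrying and 5.75 to 9.86 FPKM in non-carrying hearts, which overlap.

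Markers of other cells that a heart sample can hold are given beside these values. Summed levels of 9 atrial cardiomyocyte markers were 98.5 to 253 FPKM in mdx-carrying and 155 to 259 FPKM in non-carrying hearts. All 9 had a log2 difference below 0, with a median of -0.34 beside -0.01 over all genes, 1 with an unadjusted p under 0.05 and 0 called. The 8 hepatocyte markers summed to 2.49 to 10.9 FPKM in mdx-carrying and 1.10 to 6.21 FPKM in non-carrying hearts, with Serpina1a at 0 throughout. Macrophage markers (10 in the table) summed to 7.77 to 37.6 FPKM in mdx-carrying and 14.9 to 25.02 FPKM in non-carrying hearts. Erythrocyte markers (8) summed to 146 to 287 FPKM in mdx-carrying hearts and 98.9 to 185 FPKM in non-carrying hearts, and all 6 tested were above 0 in log2 difference (median 0.31, 2 with an unadjusted p under 0.05, 0 called). Adipocyte markers (8) summed to 67.4 to 113 FPKM in mdx-carrying and 78.2 to 128 FPKM in non-carrying hearts, and all 5 tested were below 0 (median -0.48, 1 with an unadjusted p under 0.05, 0 called). Skeletal fibre markers (10) summed to 63.1 to 151 FPKM in mdx-carrying and 69.5 to 133 FPKM in non-carrying hearts, with 3 of 5 tested above 0 (median 0.42, 2 with an unadjusted p under 0.05, 0 called). In hearts Fabp4 of the adipocyte list alone was at 66.5 to 124 FPKM. The fibre markers Tnnt3 and Myh4 had heart medians of 0 and 0.0246 FPKM. The adipocyte and fibre sums therefore cannot be read as content of those cells. The ranges of all the lists given here overlap between the groups, and the part of these cells in the Hamp values was not tested.

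The clearest difference among the members was between tissues. Hfe2, Tfrc, Slc40a1, Fth1 and Ftl1 were lower in heart than in muscle, while Trf and Hfe did not pass the test. In this comparison 41.6% of 10085 genes were called, 31.2% lower in heart and 10.4% higher, so a call alone is common. All genes had a median difference of -0.25 between heart and muscle, and the 5 members lay beyond it. In bulk tissue, fewer cells of a type and less RNA per cell cannot be told apart.

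**Figure D2:**
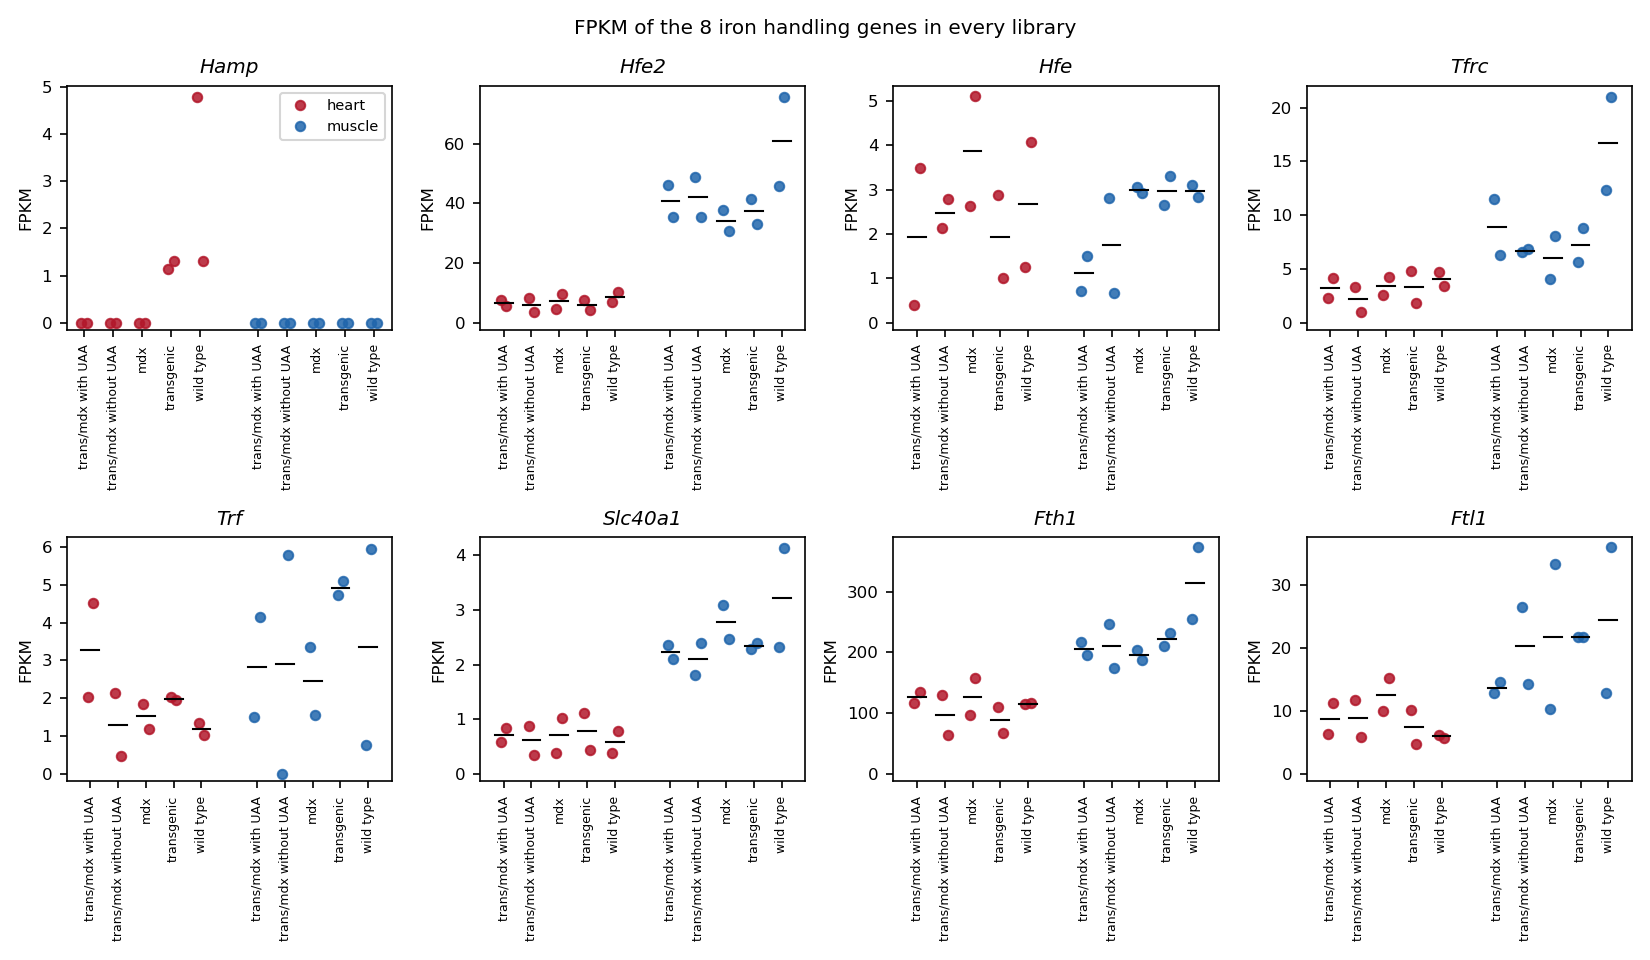
FPKM (vertical axis, a scale per gene) of the 8 genes in each of the 20 libraries, heart in red on the left and muscle in blue on the right, groups side by side, each point 1 mouse and the short line the mean of the 2 (none for Hamp). Hfe2, Slc40a1 and Fth1 separate the tissues in every library, and the groups within a tissue overlap for most genes.

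Of the regulators of hepcidin, hemojuvelin (Hfe2, chr3:96525172-96529210, plus strand) differed most. Its level was 3.70 to 10.1 FPKM in heart (median 7.18) and 30.7 to 75.7 FPKM in muscle (median 39.7). No heart reached the lowest muscle library. The mean in heart was 0.158 of that in muscle, a log2 difference of -2.51 (SE 0.19, limma adjusted p = 4.80e-09). Hfe (chr13:23702034-23710854, minus strand), which encodes a class I-like membrane protein, was at 0.397 to 5.11 FPKM in heart (median 2.71) and 0.678 to 3.30 FPKM in muscle (median 2.82). These ranges overlap almost fully, with a log2 difference of 0.04 (SE 0.24, adjusted p = 0.904) whose sign turned when single libraries were left out.

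For iron uptake, the transferrin receptor gene Tfrc (chr16:32608920-32632794, plus strand), which holds the 3′ UTR hairpins printed above, was at 1.02 to 4.77 FPKM in heart (median 3.36) and 4.02 to 21.0 FPKM in muscle (median 7.46). The tissues touch between 4.02 and 4.77 FPKM. The log2 difference was -1.20 (SE 0.22, adjusted p = 2.05e-04). Trf (chr9:103204001-103230444, minus strand) was at 0.475 to 4.51 FPKM in heart (median 1.903) and 0.00391 to 5.95 FPKM in muscle (median 3.75), and its difference of -0.43 (SE 0.32, adjusted p = 0.299) was not called.

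In muscle, Trf has to be read beside an overlapping gene model. Gm20425 overlaps Trf in the deposited loci, so fragments can be given to either. In muscle of trans/mdx mice without UAA, Trf was at 0.00391 FPKM in replicate 1 and at 5.79 FPKM in replicate 2. Gm20425 was at 3.39 FPKM in replicate 1 and at 0.857 FPKM in replicate 2, so the library with the least Trf had the most Gm20425 of all muscles. The wild-type muscles do not show such an exchange. Replicate 1 had the second-lowest Trf of all muscles (0.767 FPKM) with Gm20425 at 4.64e-08 FPKM, and replicate 2 the highest Trf (5.95 FPKM) with Gm20425 at 1.95 FPKM. The other muscles had at most 0.192 FPKM of Gm20425. With both models summed, the heart to muscle difference was -0.59 (SE 0.27, adjusted p = 0.0914). Without muscle trans/mdx replicate 1, Trf alone was lower in heart by the test (-0.71, SE 0.27, adjusted p = 0.0442).

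**Figure D3:**
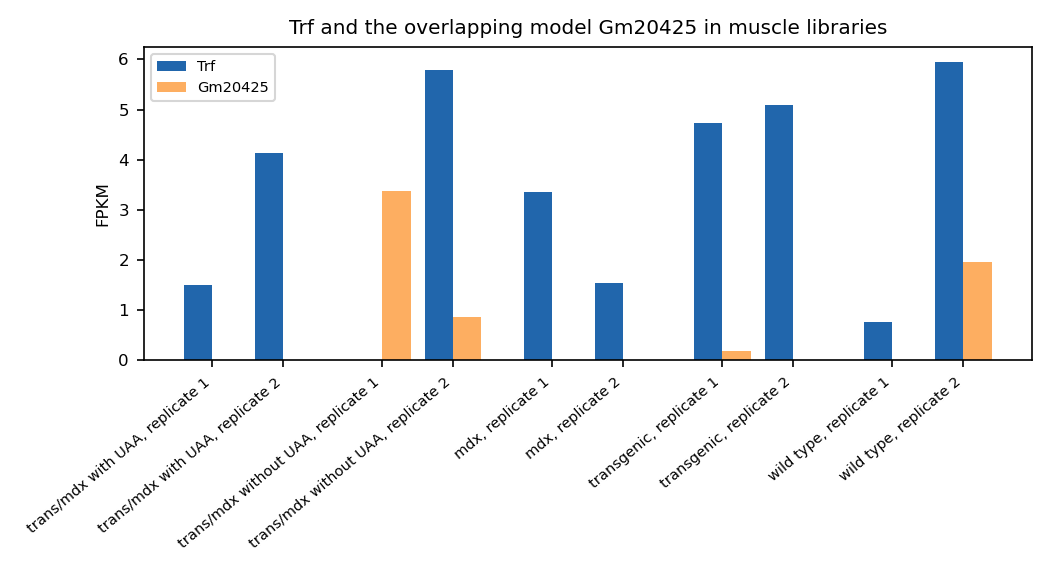
FPKM (vertical axis) of Trf (blue) and of the overlapping model Gm20425 (orange) in each muscle library, by group and replicate. Gm20425 is highest, at 3.39 FPKM, in trans/mdx without UAA replicate 1, where Trf is at 0.00391 FPKM.

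Ferroportin (Slc40a1, chr1:45908068-45926523, minus strand), the target of hepcidin, was at 0.355 to 1.12 FPKM in heart (median 0.692) and 1.81 to 4.13 FPKM in muscle (median 2.37). Every heart lay below every muscle. The log2 difference was -1.07 (SE 0.16, adjusted p = 3.56e-05), and the heart mean was 0.269 of the muscle mean. Because many hearts lie under 1 FPKM, the scale understates this ratio.

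Per length of transcript the heart medians ran in the order Fth1, Ftl1, Hfe2, Tfrc, Hfe, Trf and Slc40a1, and the muscle medians in the order Fth1, Hfe2, Ftl1, Tfrc, Trf, Hfe and Slc40a1. In both orders Fth1 stood clear of the gene after it, and the ranges of all other neighbours overlapped. Fth1 (chr19:9980598-9985098, plus strand) averaged 111 ± 28.9 FPKM in heart and 230 ± 56.5 FPKM in muscle (SD, n = 10 each), with ranges of 64.6 to 158 FPKM in heart and 175 to 374 FPKM in muscle that do not overlap. The log2 difference was -1.06 (SE 0.16, adjusted p = 2.91e-05). Ftl1 (chr7:45457944-45459884, minus strand) averaged 8.73 ± 3.42 FPKM in heart and 20.4 ± 9.05 FPKM in muscle (SD, n = 10 each), and its ranges of 4.82 to 15.2 FPKM in heart and 10.3 to 35.9 FPKM in muscle overlap. The log2 difference of Ftl1 was -1.10 (SE 0.24, adjusted p = 1.42e-03). Ferritin genes have processed copies elsewhere in the genome, and how the authors' counting split fragments among copies is not given in the sources used here, so these levels are uncertain.

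Hfe2, Slc40a1 and Fth1 are 3 of 8 members without overlap of the 10 hearts and the 10 muscles, with heart lower, a pattern found in 7.82% of tested genes (2.84% with heart higher). Hamp was above the filter only through its 4 non-carrying hearts, so its call in this comparison (higher in heart) says nothing beyond those values. With median-of-ratios scaling the differences of the 5 called members shrank to between -2.12 (Hfe2) and -0.64 (Fth1). With quantile normalization they lay between -2.11 (Hfe2) and -0.47 (Fth1), and all 5 were still called under both scalings.

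**Figure D4:**
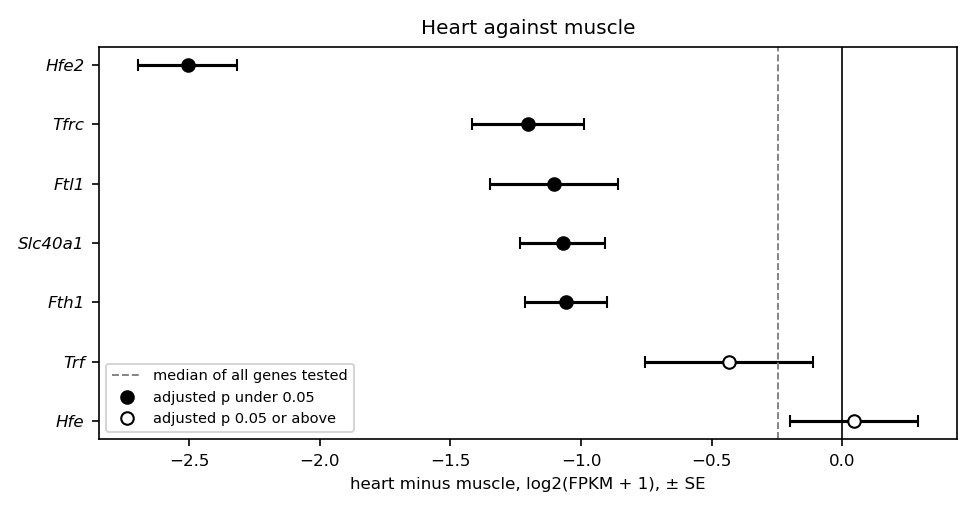
Heart minus muscle difference on the log2(FPKM + 1) scale (horizontal axis, error bars are SE) for 7 members, filled points having an adjusted p under 0.05 and the dashed line marking the median of all genes tested. Hfe2 lies farthest from 0 at -2.51, Tfrc, Ftl1, Slc40a1 and Fth1 lie between -1.20 and -1.06, and Trf and Hfe are open.

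No member was called between conditions within a tissue. In each of 7 comparisons of groups per tissue, 0 of the 7 members other than Hamp were called by limma, where 0 to 0.0121% of all genes were called in heart and 0 to 0.011% in muscle. In heart 0 of 49 member tests had an unadjusted p under 0.05, with log2 differences of -0.55 to 0.94 (SE 0.27 to 0.58). In muscle 4 of 49 did, with differences of -1.35 to 0.76 (SE 0.17 to 0.81). All 4 were in mdx or transgenic against wild-type muscle, where 10.1% and 9.91% of all tested genes also had an unadjusted p under 0.05. These tests do not show that the groups are alike.

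**Figure D5:**
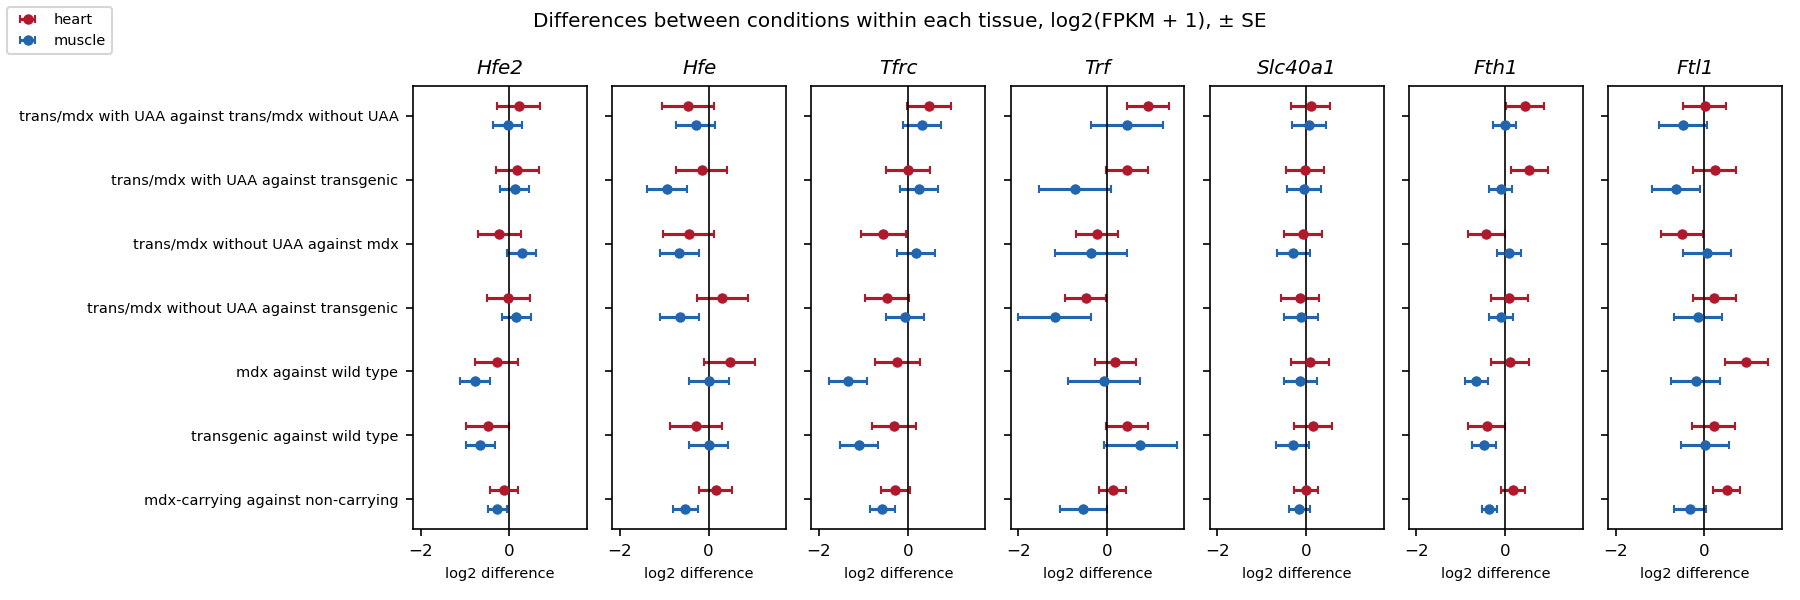
Difference between conditions on the log2(FPKM + 1) scale (horizontal axis, error bars are SE) for 7 members, each row 1 comparison, heart in red and muscle in blue. No point passed an adjusted p of 0.05, and the points farthest from 0 are those of Tfrc and Trf in muscle.

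The member with the smallest unadjusted p was Tfrc in muscle. Its level was 11.5 and 6.33 FPKM in trans/mdx muscle with UAA, 6.58 and 6.84 FPKM in trans/mdx muscle without UAA and 4.02 and 8.09 FPKM in mdx muscle. Transgenic muscle had 5.61 and 8.82 FPKM of Tfrc, and wild-type muscle 12.4 and 21.0 FPKM. The wild-type muscles lay above all other muscles, the nearest being a treated one at 11.5 FPKM. Mdx against wild type gave -1.35 (SE 0.43, adjusted p = 0.424), and transgenic against wild type gave -1.09 (SE 0.43, adjusted p = 0.485). Both comparisons use the same wild-type mice. The other values under 0.05 were those of Fth1 (-0.65, SE 0.26, adjusted p = 0.471) and Hfe2 (-0.78, SE 0.33, adjusted p = 0.474) in mdx against wild-type muscle.

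A single library goes with these muscle values. Wild-type replicate 2 had the highest muscle value of Hfe2, Tfrc, Trf, Slc40a1, Fth1 and Ftl1. Its FPKM also summed to the most of any muscle (208611, where the lowest was 136461), and its share of Lars2, a gene whose FPKM makes up to 19.2% of the summed FPKM of a muscle library, was lowest at 7.33%. The median difference of all genes was -0.35 in mdx muscle and -0.33 in transgenic muscle, each against wild-type muscle. Without this library the Tfrc difference between mdx and wild type was -0.99 (adjusted p = 0.820), that of Hfe2 -0.42 (adjusted p = 0.889) and that of Fth1 -0.38 (adjusted p = 0.880).

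In heart the members nearest to the threshold were Trf and Ftl1. Trf was at 2.03 and 4.51 FPKM in trans/mdx hearts with UAA and at 2.13 and 0.475 FPKM in trans/mdx hearts without UAA, a log2 difference of 0.93 (SE 0.47, adjusted p = 0.849). The groups overlap, as 2.13 FPKM without UAA exceeds 2.03 FPKM with it. Mdx hearts had 10.04 and 15.2 FPKM of Ftl1 and wild-type hearts 6.26 and 5.67 FPKM, at a difference of 0.94 (SE 0.48, adjusted p = 1).

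Some lists of markers of other cells shifted in these heart comparisons, without passing the test. Sums of the ventricular cardiomyocyte and hepatocyte lists overlapped in both. In trans/mdx hearts with UAA against those without, all 5 tested skeletal fibre markers were above 0 (median 1.68, 3 with an unadjusted p under 0.05), and the 10 in the table summed to 111 to 130 FPKM with UAA and 63.1 to 82.8 FPKM without. All 5 tested adipocyte markers were above 0 as well (median 1.06, 3 with an unadjusted p under 0.05), with sums over 8 of 85.7 to 93.7 FPKM with UAA and 67.4 to 81.4 FPKM without. In mdx against wild-type hearts, 5 of 6 tested erythrocyte markers were above 0 (median 1.16, 4 with an unadjusted p under 0.05), and the 8 summed to 175 to 287 FPKM in mdx and 98.9 to 107 FPKM in wild-type hearts. All 5 tested adipocyte markers were below 0 there (median -1.80, 4 with an unadjusted p under 0.05), with sums of 73.8 to 113 FPKM in mdx and 126 to 128 FPKM in wild-type hearts. None of these markers was called, and Lep of the adipocyte list was at 0 in every heart. Fabp4 of that list alone was at 66.5 to 124 FPKM in hearts. The fibre markers Tnnt3 and Myh4 had heart medians of 0 and 0.0246 FPKM. The adipocyte and fibre sums therefore cannot be read as content of those cells. The 10 macrophage markers summed to 14.8 to 20.3 FPKM with UAA and 7.77 to 12.1 FPKM without. In mdx hearts they summed to 24.8 to 37.6 FPKM and in wild-type hearts to 21.1 to 21.8 FPKM. The part of these cells in the Trf and Ftl1 values was not tested.

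Slc40a1, the exporter that hepcidin acts on, overlapped between the genotypes. Its level was 0.355 to 1.02 FPKM in mdx-carrying hearts (median 0.717) and 0.390 to 1.12 FPKM in non-carrying hearts (median 0.616), with a difference smaller than 0.01 (1.42e-04, SE 0.28, limma adjusted p = 0.99997). In muscle Slc40a1 was at 1.81 to 3.09 FPKM in mdx-carrying and 2.29 to 4.13 FPKM in non-carrying mice, which overlap as well. No member other than Hamp was without overlap between mdx-carrying and non-carrying libraries in either tissue, and Hamp was chosen for that pattern in heart. In heart, genes without overlap were 0.254% of those tested with lower and 0.193% with higher values in mdx-carrying mice. In muscle, genes without overlap were 0.712% of those tested with lower and 0.0657% with higher values in mdx-carrying mice, and no member was among them. The difference of the genotype, transgene and UAA effects between the tissues was not called for any of the 7 members in 21 tests, 0 of them with an unadjusted p under 0.05, where 0% of all genes were called.

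Other genes of iron handling were followed in 7 lists of 92 genes, of which 87 are in the table, 57 were tested in heart and 63 in muscle. None of them was called in the 14 comparisons of groups within tissues, while 36 of 840 gene tests had an unadjusted p under 0.05. Between tissues 23 of 68 listed genes were called (33.8%), 4 higher and 19 lower in heart, beside 41.6% of all genes. The genes named for this comparison were chosen after their values were seen.

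All 4 tested genes of iron storage and ferritin turnover were lower in heart, with a list median of -0.80 beside -0.25 over all genes. Pcbp1, an iron chaperone that loads ferritin, averaged 4.97 ± 1.68 FPKM in heart and 12.3 ± 3.58 FPKM in muscle (SD, n = 10 each), and its partner Pcbp2 averaged 5.38 ± 1.82 FPKM in heart and 10.2 ± 2.25 FPKM in muscle. Ncoa4, the receptor that takes ferritin to the lysosome, was lower in heart (log2 difference -0.46, SE 0.18, adjusted p = 0.0480). Among transport genes 2 of 10 were higher and 2 lower in heart, beside 10.4% and 31.2% of all genes. Ceruloplasmin (Cp), a ferroxidase that works with ferroportin, was at 9.64 ± 2.90 FPKM in heart and 2.55 ± 0.788 FPKM in muscle (log2 difference 1.57, SE 0.18, adjusted p = 1.74e-06). Cd163, a macrophage receptor for hemoglobin, was also higher in heart (0.43, SE 0.16, adjusted p = 0.0355). Of 9 macrophage markers 3 were higher there, Cd163 itself among them. The metalloreductases Steap3 and Steap4 were lower in heart.

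Of the genes that control hepcidin, 1 of 18 BMP and SMAD genes was higher and 3 lower in heart, the lower ones being the receptors Bmpr2, Acvr2a and Acvr2b. Over all genes 31.2% were called lower and 10.4% higher in heart, so the counts of these short lists are not read as a result about them. All 3 called of 5 IL6 and STAT3 genes were lower in heart: Jak1, Jak2 and Il6st, the shared receptor subunit gp130. Hif1a was higher in heart among 5 genes of iron regulatory proteins and their control, with 5.63 ± 2.27 FPKM in heart and 2.29 ± 0.448 FPKM in muscle (SD, n = 10 each). Of 19 mitochondrial iron and heme genes 5 were lower in heart, with a median of -0.25, close to that of all genes. They include ferrochelatase (Fech), the last enzyme of heme synthesis, and the cysteine desulfurase Nfs1 of iron-sulphur cluster assembly. Of 7 heme transport and breakdown genes 2 were lower in heart, haptoglobin (Hp) and the heme transporter Slc48a1.

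Bmp10, an atrial growth factor of the BMP family, came nearest to a call among the listed genes within a tissue. Trans/mdx hearts with UAA had 8.01 and 8.64 FPKM of Bmp10, and trans/mdx hearts without UAA 0 and 0.499 FPKM. Mdx hearts had 0 and 0.417 FPKM, transgenic hearts 0.846 and 2.48 FPKM and wild-type hearts 6.84 and 7.18 FPKM. Treated trans/mdx and wild-type hearts were thus high, and the other 3 groups low. The difference between trans/mdx hearts with and without UAA was 2.93 (SE 0.44, adjusted p = 0.0608), where 0% of all genes were called, and that between mdx and wild-type hearts was -2.75 (SE 0.44, adjusted p = 0.0563), where 0.0121% were. In the UAA comparison, all 9 atrial markers, Bmp10 among them, had a log2 difference above 0, with a median of 0.88 beside 0.15 over all genes, 4 with an unadjusted p under 0.05 and 0 called. In mdx against wild-type hearts their median was -0.38 beside 0.07 over all genes, with 1 of 9 above 0. The skeletal fibre, adipocyte, erythrocyte, macrophage, endothelial and Schwann cell lists given beside Trf and Ftl1 move in these same comparisons. The part of atrial tissue, or of the cells these lists name, in either Bmp10 difference was not tested. Hamp was listed at 0 in the treated hearts with 8.01 and 8.64 FPKM of Bmp10. A count of 0 there allows up to 4.00 and 3.30 FPKM of Hamp. Any relation between Bmp10 and Hamp was not tested.

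The remaining genes with the smallest p in their lists had adjusted p of 0.424 or above. In heart, Lrp1, a receptor that takes up heme bound to hemopexin, was at 5.23 and 1.61 FPKM in transgenic hearts and 10.5 and 8.21 FPKM in wild-type hearts (-1.35, SE 0.50, adjusted p = 1). Socs3, the feedback inhibitor of IL6 signalling, had a listed value of 0 in each trans/mdx heart without UAA and 1.06 and 1.38 FPKM in mdx hearts. Pcbp1 had 7.58 and 7.72 FPKM in trans/mdx hearts with UAA and 2.99 and 4.37 FPKM in those without. In muscle, Glrx5, a glutaredoxin of iron-sulphur cluster assembly, was at 3.41 and 2.46 FPKM in mdx mice and 6.72 and 10.6 FPKM in wild-type mice (-1.27, SE 0.41, adjusted p = 0.424). Smad6, an inhibitor of BMP signalling, had 1.11 and 3.79 FPKM in trans/mdx muscle with UAA and 0.320 and 0 FPKM in trans/mdx muscle without it (1.47, SE 0.46, adjusted p = 1). None of these values passed.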

How the data were processed

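Heart and tibialis anterior muscle gave 20 RNA-seq libraries, made after removal of ribosomal RNA with a directional kit, per the labels' protocols. The authors deposited FPKM per gene, with no counts. Tools named in the submitters' processing notes are HISAT2 2.0.4 and cutadapt 1.9.3 (build mm10), with Cuffdiff and Cufflinks. How strand was used, and which annotation and filters, is not given in the sources used here. Hamp overlaps an antisense gene, so fragments from both strands could be mixed if strand was not used. The whole table was transformed as log2(FPKM + 1), and genes reaching 1 FPKM in 2 libraries or more of a fit were tested in R 4.3.3 by limma 3.58.1 (group coefficients, intensity trend), with two-sided tests and Benjamini-Hochberg adjustment over all genes at 0.05. This left 5 residual degrees of freedom per tissue and 10 over both tissues. In heart all 8 members passed the filter and in muscle 7, all but Hamp. Depth and the bases deducted from transcript length were estimated together from low FPKM values of single-transcript genes with transcripts longer than that of Hamp. Of these values, 70.6 to 78.4% lay within 0.05 steps of a whole number. The count of reads behind other values is unknown, so no count model was fitted. The limma fit and the depth estimate were tested on simulated data. The members, lists and tests were chosen with earlier results of these data known. Named genes were the members, per iron list the genes called within a tissue or else the 2 with the smallest p, and the 5 genes most correlated with Hamp. The alternatives were another pseudocount, no filter, 2 scalings, other sets of libraries in the fit, replicate blocks, each library left out, and Trf summed with Gm20425, which was chosen after seeing the data. A gene called in muscle is not reported here.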

Additional observations from a re-analysis of the deposited data

Results flagged for a closer look

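In 15 sets, each the 10 libraries of a tissue for a member with values above 0, the highest and lowest library were compared by Dixon's rule. The rule is made for values of 1 population, where chance marks about 1 in 20 sets. Each set here spans 5 groups, so that rate need not hold and the flags are descriptions. Hamp in heart stood out through wild-type replicate 1, at 4.79 FPKM with the next heart at 1.32 FPKM. These heart values also chose the gene and rest on few fragments, so this flag is no test. In muscle wild-type replicate 2 stood out for Hfe2 (75.7 FPKM, next 48.7 FPKM), Tfrc (21.0 FPKM, next 12.4 FPKM) and Fth1 (374 FPKM, next 256 FPKM). These 3 values come from a single library, which also has the highest sum of FPKM in muscle. Trf in heart stood out through trans/mdx with UAA replicate 2, at 4.51 FPKM with the next heart at 2.13 FPKM.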

How the results depend on the processing

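In 17 comparisons between conditions 0 members were called, and the count stayed at 0 in all 216 alternatives. Heart against muscle gave 6 calls of members, where 41.6% of all genes were called, and 6 or 7 under its alternatives. These counts include Hamp, whose call rests only on the 4 non-carrying hearts that chose it and is no support. Hfe2, Tfrc, Slc40a1, Fth1 and Ftl1 were lower in heart in all 26 alternatives, with adjusted p of at most 0.0144, and Trf passed only without muscle trans/mdx replicate 1. The Hfe difference ranged from -0.12 to 0.21 with a library left out, and turned negative without heart trans/mdx with UAA replicate 2 (-0.12), heart transgenic replicate 1 (-0.05), heart wild-type replicate 2 (-0.07), heart mdx replicate 2 (-0.03), muscle trans/mdx with UAA replicate 1 (-0.0093) and muscle trans/mdx without UAA replicate 2 (-0.07). Of the 5 genes most like Hamp, 2 stayed in the top 5 when the pseudocount was 0.1 FPKM, 2 without a filter, 2 with median-of-ratios scaling and 3 with quantile normalization, and 0 to 4 with a heart left out. Same-numbered libraries did not deviate together, with r between -0.084 and 0.048 among hearts and between -0.054 and 0.041 among muscles. Between heart and muscle of the same group and number, r lay between -0.020 and 0.0099. The numbers were therefore not used to pair libraries in the main fits. A replicate block gave 0 calls of members within tissues. A block by group and number, as if each were 1 mouse, gave 6 between tissues, Hamp included. With 2 mice per group and few fragments behind low values, changes of genes near 1 FPKM were measured with little precision.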
